A study of Mus musculus with 4 samples.

Results

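Pre-B cells from marrow labelled STAP-2 knockout were compared with pre-B cells from wild-type marrow, both 1 month after transplantation. The comparison rests on 2 of the study's 4 RNA-seq libraries, 1 a side, so every difference below describes this pair of libraries and has no replicate check. All libraries came from C57BL/6J mice, and the remaining 2 were made from untransplanted marrow at steady state, 1 from wild-type and 1 from STAP-2 transgenic animals, which carry added STAP-2. Those steady-state libraries serve here only to show which member of the transplanted pair stands apart. The titles of both transplanted libraries share a number and those of both steady-state libraries another, and what the number marks cannot be told apart from transplantation. The labels do not give the recipients, the conditioning, the number of animals pooled, the promoter of the transgene or the part of the gene that was deleted. They do not state either whether host cells remained among those collected. Genes entered the comparison when they reached 1 FPKM, a read count scaled to transcript length and library size, in either transplanted library and had a transcript of 300 nt or more. That left 10603 of 23284 gene symbols.

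Pre-B cells are the marrow precursors that have assembled an immunoglobulin heavy chain and now pass from a proliferative stage, driven by interleukin-7 and the pre-B receptor, to a resting stage in which the light chain locus is rearranged. Genes of DNA replication and mitosis are therefore high in cycling large pre-B cells and low in resting small pre-B cells. STAP-2 (signal-transducing adaptor protein-2) is a cytoplasmic docking protein with pleckstrin homology and SH2-like domains that has been linked to STAT, NF-kB and Toll-like receptor signalling. Immediate early genes such as Fos and Egr1 are switched on within minutes of a signal, without new protein synthesis, and many of their messages are short-lived.

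The targeted gene did not check the label. Stap2, on chromosome 17 (55997077 to 56005584, minus strand) of mm10, stood at 0.212 FPKM in steady-state wild type (2 fragments), 0.536 in the transgenic library (5 fragments), 0 in transplanted wild type and 0.179 in the knockout-labelled library (2 fragments). The wild-type library of the pair was thus below the one labelled knockout, and the exons under those fragments are unknown. The term "knockout-labelled" is used throughout, and each direction rests on that label. Stap1, the related adaptor of the same family, was measurable at 34.1, 38.4, 48.3 and 36.8 FPKM in the same order and 1.31-fold lower (1.20 to 1.43) in the knockout-labelled library. Among 16 measured genes of a list of STAP adaptors and reported partners, 14 were lower there, at a median of -0.20. Of all compared genes 55.9% were lower. The largest difference in the list belonged to Csf1r, the receptor of macrophage colony-stimulating factor and also a monocyte marker.

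Depth, estimated from steps of 1 fragment among low values, was about 7770000 fragments in transplanted wild type and 8700000 in the knockout-labelled library, against 7340000 and 7270000 at steady state. For a transcript of 1500 nt, 3 fragments corresponded to 0.299 FPKM in transplanted wild type and 0.267 in the knockout-labelled library. Ratios of FPKM are given with 95% Clopper-Pearson intervals from fragments computed back from FPKM, depth and the length of 1 transcript per gene. For a gene with several transcripts, the fragment counts and interval widths are therefore approximate. The intervals cover counting error only, since fragments without molecular identifiers are not independent molecules. The markers of the labelled cell type were present: Cd79a, a signalling chain of the B cell receptor, was at 1952 FPKM in transplanted wild type and 1624 in the knockout-labelled library, Vpreb3 at 1291 and 1492, and Pax5 at 328 and 317. Of 14 pre-B markers 7 were higher and 7 lower, and their median difference in log2(FPKM + 1) was 0.04. In bulk samples, fewer cells of a type and less RNA per cell cannot be told apart.

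Across the 10603 genes the pair was close, with a median difference of -0.03 (library labelled knockout minus wild type, log2(FPKM + 1)) and the percentiles 5 and 95 at -0.52 and 0.49. The log2(FPKM + 1) scale understates the change of low genes. By any amount, 4675 genes (44.1%) were higher and 5928 (55.9%) lower in the knockout-labelled library. A difference of 2-fold on this scale was reached by 63 genes (0.594%) upward and 104 genes (0.981%) downward, 167 (1.58%) in all. Of the 63 higher genes, 30 belonged to lists of mitosis, replication, repair or G1 and E2F control, which hold 342 (3.23%) of all compared genes, and 9 were among the 43 compared clustered histone genes (0.406%). Of the 104 lower genes, 11 belonged to the immediate early lists (35 compared genes, 0.330%), 17 to the neutrophil and monocyte marker lists (31, 0.292%) and 5 were clustered histone genes.

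**Figure D1:**
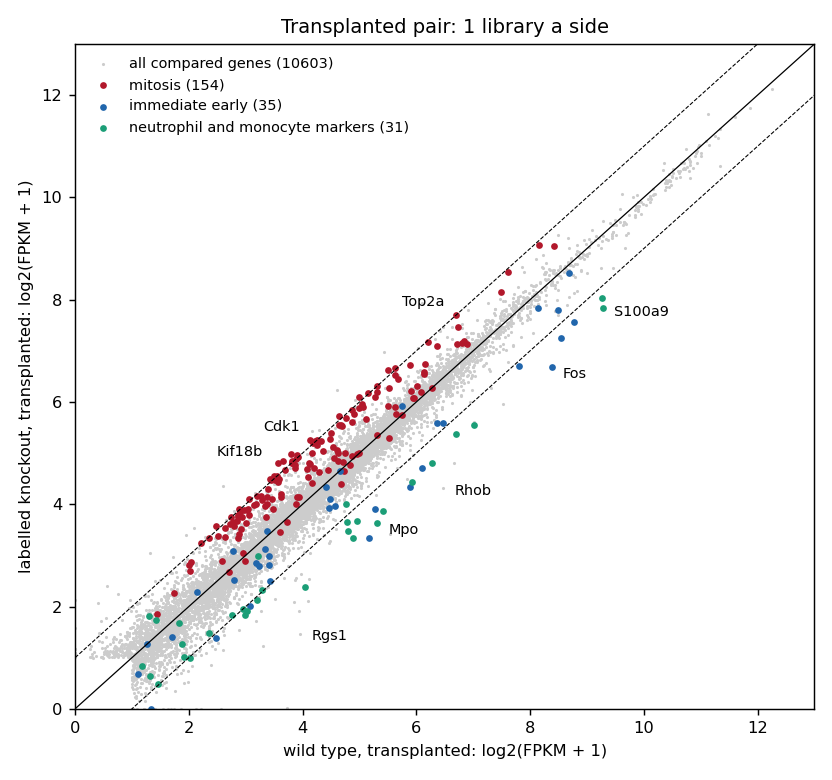
Each point is 1 of 10603 genes, with log2(FPKM + 1) in transplanted wild type on the x axis and in the knockout-labelled library on the y axis; the solid line marks equal values and the dashed lines a difference of 2-fold. Red points (154 mitosis genes) lie mainly above the solid line, while blue (35 immediate early genes) and green points (31 neutrophil and monocyte markers) lie mainly below it, with Rgs1 the lowest labelled gene.

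Many mitotic genes, and the nucleotide supply gene Rrm2, lay close to the 2-fold threshold. Kif20a, Top2a and Ccnb1 lay just inside it, each at a difference of 1.00, and Aurka, Rrm2 and Sgol1 just outside, at 0.995, 0.997 and 0.997. On the lower side Ms4a3 (-1.03), Fam84b (-1.01) and Kynu (-1.01) were just inside, and C1qc (-0.998), Ctsh (-0.99) and Serpina3g (-0.99) just outside.

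Neither library of the pair alone carried these differences. Among all 10603 genes the knockout-labelled library lay above all 3 other libraries in 22.6% and below them in 30.3%, and transplanted wild type lay above them in 27.1% and below in 24.6%. The balance of above and below changed when the libraries were rescaled. Among the 63 genes at least 2-fold higher, the knockout-labelled library was the highest of the 4 in 52 and transplanted wild type the lowest in 50. Both held at once for 41, while the same joint order held for 9.42% of all genes. Among the 104 genes at least 2-fold lower, the knockout-labelled library was the lowest in 68 and transplanted wild type the highest in 77, with both at once for 44, against 9.16% of all genes. Since these genes were picked for the distance within the pair, extreme places of its members are built in, and the counts only show how that distance was divided. The share of the distance was similar on both sides: relative to the mean of the steady-state libraries, the higher genes had medians of -0.57 in transplanted wild type and 0.52 in the knockout-labelled library, and the lower genes 0.71 and -0.60. Counted at 2-fold over the same genes, the 6 possible pairs of libraries differed in 107 to 188 genes. The transplanted pair, at 167, stood below the pair of both wild-type libraries, at 188, and above the transgenic library against either transplanted one, at 109 and 107. Genes entered by their level in the transplanted libraries only, so pairs that include a steady-state library are not counted on like terms. From steady-state to transplanted wild type, 156 genes were higher and 32 lower.

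Genes of mitosis were higher as a body. Of 154 measured genes in 5 mitosis lists, 144 were higher in the knockout-labelled library and 25 reached 2-fold, where 44.1% and 0.594% of all genes did. Their median difference was 0.80, beside -0.03 for all genes. Relative to the steady-state mean, the division was close to even: transplanted wild type stood 0.36 lower and the knockout-labelled library 0.39 higher. The steady-state libraries differed from each other, so the division depends on which is the reference. Spindle kinesin and microtubule genes summed to 1230, 1586, 1000 and 1877 FPKM in steady-state wild type, transgenic, transplanted wild type and knockout-labelled. In these sums transplanted wild type was nearer steady-state wild type, and the knockout-labelled library nearer the transgenic one. The knockout-labelled library was the highest of the 4 for 132 of the 154 and transplanted wild type the lowest for 125.

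Many mitotic genes are controlled in the cell cycle through a pair of promoter elements, the cell cycle genes homology region (CHR), bound by the DREAM and MuvB complexes, and the CCAAT box, bound by NF-Y. The promoters of 3 genes of this group are shown because both elements occur in each. They run from 250 bases before to 50 bases after the start, 5′ to 3′ on the gene's strand, from RefSeq on GRCm38.p6. Capitals mark TTTGAA or TTCGAA and CCAAT, on either strand, so that TTCAAA and ATTGG are the same elements on the opposite strand. In the Ube2c promoter a CCAAT and an ATTGG overlap and form 1 run of capitals.
Cdk1 (chr10:69352863-69353162, minus strand): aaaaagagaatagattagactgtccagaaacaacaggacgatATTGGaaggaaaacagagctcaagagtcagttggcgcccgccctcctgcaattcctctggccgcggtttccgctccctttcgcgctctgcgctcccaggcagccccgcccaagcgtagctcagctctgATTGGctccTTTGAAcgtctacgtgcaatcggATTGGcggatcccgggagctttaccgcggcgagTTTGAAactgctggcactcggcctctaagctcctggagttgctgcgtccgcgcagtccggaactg
Kif18b (chr11:102925075-102925374, minus strand): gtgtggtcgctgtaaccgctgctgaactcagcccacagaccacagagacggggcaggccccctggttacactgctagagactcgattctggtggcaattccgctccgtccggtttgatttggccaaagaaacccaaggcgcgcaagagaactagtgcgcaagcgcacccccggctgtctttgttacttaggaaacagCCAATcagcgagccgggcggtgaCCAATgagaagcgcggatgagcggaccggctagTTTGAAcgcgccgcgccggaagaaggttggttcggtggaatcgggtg
Ube2c (chr2:164769679-164769978, plus strand): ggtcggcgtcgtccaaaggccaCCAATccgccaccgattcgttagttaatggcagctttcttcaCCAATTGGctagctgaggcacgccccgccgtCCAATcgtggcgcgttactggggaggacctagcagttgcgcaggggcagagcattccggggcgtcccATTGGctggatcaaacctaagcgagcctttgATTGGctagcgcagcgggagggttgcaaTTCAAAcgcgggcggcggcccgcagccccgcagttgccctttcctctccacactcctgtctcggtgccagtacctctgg

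The CHR letters (TTTGAA or TTCGAA, both strands) occurred in 72 of 126 mitosis promoters of this length that the RefSeq table holds, 57.1%, against 14.4% of 8472 promoters of compared genes and 19.4% of all 27025 promoters in the table. CCAAT occurred in 65.1% of the mitosis promoters, 40.2% of those of compared genes and 37.9% of all. Both stood together in 44.4% of the mitosis promoters and 6.27% of those of compared genes. Promoters of replication and repair genes held the CHR letters in 18.3% and CCAAT in 57.5%. A match of letters is a description and does not show that a factor binds there.

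**Figure D2:**
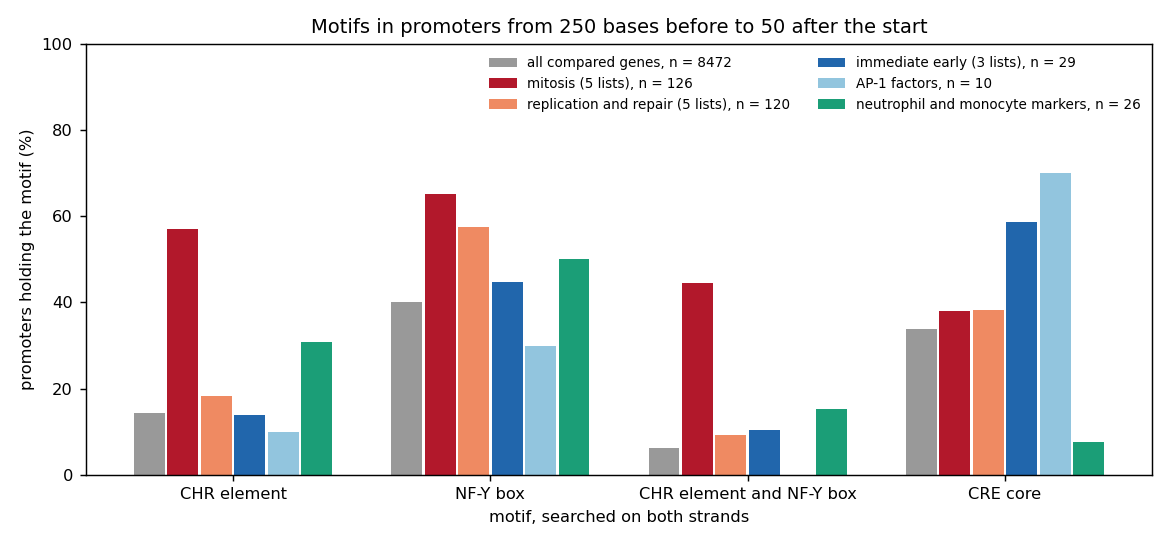
Bars give the percentage of promoters (250 bases before to 50 after the start) that hold the CHR element (TTTGAA or TTCGAA), the NF-Y box (CCAAT), both, or the CRE core (TGACG), in all compared genes and in 5 sets of genes; the number of promoters per set is in the key. The mitosis bar stands at 57.1% for the CHR element, where all compared genes stand at 14.4%, and the bar of AP-1 factors at 70% for the CRE core, where all compared genes stand at 33.9%.

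Kinases and cyclins that time entry into mitosis were higher without exception: all 25 of the measured members, 6 of them by 2-fold, at a median of 0.91. Cdk1, the kinase that drives mitotic entry, was at 16.5 FPKM in transplanted wild type and 37.3 in the knockout-labelled library, with steady-state wild type at 22.8 and the transgenic library at 28.5. Both steady-state values lay between the transplanted ones, and the ratio within the pair was 2.26 (2.05 to 2.51). Its partner Ccnb1, cyclin B1, showed the same order, at 21, 30.6, 18 and 37 FPKM in steady-state wild type, transgenic, transplanted wild type and knockout-labelled. The phosphatase gene Cdkn3, whose product acts on CDKs, had a ratio of 2.38 (1.77 to 3.22), the cyclin F gene Ccnf of 2.16 (1.93 to 2.43), the kinase gene Pbk of 2.16 (1.87 to 2.48) and the phosphatase gene Cdc25c, which activates Cdk1, of 2.31 (1.65 to 3.29).

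Spindle kinesins and microtubule factors had a median of 0.91, with 41 of 42 higher and 11 by 2-fold. Kif18b, a kinesin of astral microtubules, was the farthest apart of the 154 genes. It stood at 16.9, 20.8, 10.9 and 27.1 FPKM in the order steady-state wild type, transgenic, transplanted wild type and knockout-labelled, a ratio of 2.48 (2.16 to 2.87) within the pair. Birc5, the survivin subunit of the chromosomal passenger complex, was at 62.1, 74, 44.3 and 97.9 FPKM in that order. Hmmr, Kif22, Dlgap5 and Kif15 had ratios of 2.23 (1.93 to 2.57), 2.2 (1.98 to 2.46), 2.2 (1.88 to 2.59) and 2.12 (1.91 to 2.37). In each of these 6 genes transplanted wild type was the lowest library and the one labelled knockout the highest.

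Of 37 kinetochore and centromere genes 36 were higher, 6 by 2-fold, at a median of 0.67. The Ndc80 complex, which couples kinetochores to microtubules, was represented by Spc24, Spc25 and Nuf2: Spc24 had a ratio of 2.36 (1.9 to 2.94), Spc25 of 2.1 (1.75 to 2.52) and Nuf2 of 2.09 (1.8 to 2.44). Cenpf was at 10.4, 13, 7.35 and 16.1 FPKM, in the same order of libraries, and the kinetochore motor gene Cenpe had a ratio of 2.15 (1.96 to 2.38). The spindle checkpoint and anaphase-promoting complex list was less uniform, with 21 of 26 higher, 1 by 2-fold and a median of 0.33. Its cell-cycle-regulated members Ube2c (2.08, 1.81 to 2.4), Fbxo5 (2, 1.77 to 2.26), Bub1b (1.93, 1.77 to 2.12), Mad2l1 (1.91, 1.64 to 2.22) and Cdc20 (1.85, 1.63 to 2.1) were at the upper end. Of 27 condensin, cohesin and chromosome structure genes 24 were higher (median 0.59), with Top2a, the topoisomerase that untangles sister chromatids, at 122, 164, 103 and 207 FPKM and Mki67, the Ki-67 proliferation antigen, at 93.8, 120.0, 72.7 and 143 FPKM.

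Genes of DNA replication and repair were higher by a smaller amount. Of 152 measured genes in 5 lists, 129 were higher and 23 lower, 3 by 2-fold upward and 1 downward, with a median of 0.39. The knockout-labelled library lay 0.31 above the steady-state mean and transplanted wild type 0.14 below it. In this group the knockout-labelled library was the highest of the 4 for 109 genes, and transplanted wild type the lowest for 63. Origin licensing and helicase genes had a median of 0.53 with 30 of 32 higher, and DNA polymerases and the clamp 0.52 with 29 of 31 higher. Gins2, a subunit of the replicative helicase, was at 15.3, 19.1, 11.8 and 22.7 FPKM in steady-state wild type, transgenic, transplanted wild type and knockout-labelled, a ratio of 1.93 (1.69 to 2.2). Mcm10 was at 7.55, 9.63, 7.73 and 14.1 FPKM, so that transplanted wild type was close to its steady-state counterpart and the knockout-labelled library stood apart. The licensing gene Cdc6 had a ratio of 1.79 (1.53 to 2.09), and Rpa3, a subunit of the single-strand binding protein RPA, of 2.2 (1.75 to 2.79).

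Chromatin assembly and maintenance methylation genes had a median of 0.53 with 24 of 27 higher. The histone chaperone gene Asf1b had a ratio of 2.05 (1.82 to 2.32), the histone variant gene H2afx of 1.87 (1.74 to 2.01) and Uhrf1, which guides methylation to new DNA, of 1.86 (1.77 to 1.96). Hist1h1c, a linker histone gene on the same list, went the other way, at 350.4, 65, 158 and 76.6 FPKM in the order used above. Homologous recombination and Fanconi repair genes were higher for 27 of 34 genes, their median being 0.38, with the Fanconi ubiquitin-conjugating enzyme gene Ube2t at a ratio of 2.07 (1.53 to 2.79). Nucleotide supply genes were closer to level, with 19 of 28 higher and a median of 0.10. The largest differences in that list belonged to S-phase enzymes: Rrm2, a ribonucleotide reductase subunit, was at 107, 141, 87.7 and 176 FPKM and Dut, the dUTPase gene, had a ratio of 1.8 (1.58 to 2.07).

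Among genes that control G1 and entry into S phase, 31 of 38 were higher, 2 by 2-fold, at a median of 0.26. Cyclin E2, which brings cells into S phase, was at 5.1, 7.45, 3.86 and 9.22 FPKM (Ccne2, ratio 2.39, 1.85 to 3.1), and Ccne1 had a ratio of 1.78 (1.39 to 2.26). The transcription factor genes E2f7 (2.31, 1.92 to 2.8), E2f8 (1.9, 1.72 to 2.1), E2f1 (1.83, 1.57 to 2.14), Mybl2 (1.91, 1.66 to 2.21) and Foxm1 (1.89, 1.74 to 2.05), all of them themselves E2F or DREAM targets, were higher together. The inhibitor genes of the list did not move as one. Cdkn2c, which encodes p18, had a ratio of 1.65 (1.46 to 1.86) and Cdkn1a, which encodes p21, one of 1.56 (1.2 to 2.06), while Cdkn1b, which encodes p27, was 1.18-fold (1.11 to 1.26) lower. Cdkn2a was at 1.79 and 0.798 FPKM in the pair, on 10 and 5 fragments. The D-type cyclin of pre-B cells, Ccnd3, was at 208, 209, 166 and 225 FPKM, with transplanted wild type the low library and the remaining 3 within 208 to 225 FPKM.

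Most genes of the immediate early lists (AP-1, EGR with NR4A and IER, and Kruppel-like) were lower. These lists were drawn up by gene family, so not every member need be an immediate early gene. The Kruppel-like list differed least, with 7 of 11 lower at a median of -0.33. Of 35 measured genes in 3 lists, 30 were lower in the knockout-labelled library and 11 of these by 2-fold, where 55.9% and 0.981% of all genes were. Their median was -0.54. Transplanted wild type lay 0.45 above the steady-state mean and the knockout-labelled library 0.17 below it, and the former was the highest library for 22 genes and the latter the lowest for 18.

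Promoters of 3 genes of this and the stress response group are shown, in the same window and build, because each holds TGACG, the core of the cAMP response element bound by CREB and ATF factors. Capitals mark TGACG and its reverse complement CGTCA. In the Ppp1r15a promoter both overlap in the full palindromic element.
Fos (chr12:85473640-85473939, plus strand): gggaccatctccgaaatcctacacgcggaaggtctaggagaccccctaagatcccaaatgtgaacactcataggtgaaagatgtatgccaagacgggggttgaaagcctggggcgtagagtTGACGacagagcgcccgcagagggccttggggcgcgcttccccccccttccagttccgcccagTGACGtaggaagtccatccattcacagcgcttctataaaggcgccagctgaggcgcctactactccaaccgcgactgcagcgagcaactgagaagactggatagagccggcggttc
Fosb (chr7:19309996-19310295, minus strand): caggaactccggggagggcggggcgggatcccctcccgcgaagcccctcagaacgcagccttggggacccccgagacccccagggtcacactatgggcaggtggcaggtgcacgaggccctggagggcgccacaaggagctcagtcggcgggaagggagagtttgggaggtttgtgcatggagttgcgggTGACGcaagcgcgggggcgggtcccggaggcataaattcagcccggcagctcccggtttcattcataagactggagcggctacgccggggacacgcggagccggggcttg
Ppp1r15a (chr7:45526219-45526518, minus strand): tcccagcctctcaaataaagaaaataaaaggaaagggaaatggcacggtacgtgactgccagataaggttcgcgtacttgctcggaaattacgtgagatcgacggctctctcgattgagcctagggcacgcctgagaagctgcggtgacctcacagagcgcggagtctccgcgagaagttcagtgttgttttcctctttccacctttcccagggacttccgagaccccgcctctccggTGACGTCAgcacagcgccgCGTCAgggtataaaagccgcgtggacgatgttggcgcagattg

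TGACG, on either strand, occurred in 7 of 10 AP-1 promoters (70%) and in 17 of 29 immediate early promoters (58.6%), against 33.9% of promoters of compared genes and 21.02% of all promoters in the table. It was not frequent among the 2-fold lower genes, at 16 of 77 promoters (20.8%), and mitosis promoters held it in 38.1%. GGGCGG, the box of SP and Kruppel-like factors, occurred in 25 of the 29 (86.2%) and in 65.3% of promoters of compared genes. The CArG box of serum response factor was found in 0 of 10 AP-1 promoters and in 1 of 10 promoters of EGR, NR4A and IER genes, beside 1.25% of promoters of compared genes. The window covers only 300 bases, so an element farther upstream is not seen. Immediate early genes were also compact, with a median of 3 exons and a span of 7651 nt, against 9 exons and 22266 nt for all compared genes. Their 3′ UTRs held the AU-rich letters TATTTAT in 18 of 35 cases (51.4%), against 28.7% of 10170 genes. These UTRs were also longer, with a median of 1492 nt against 1050.5 nt, and per kb of UTR the letters occurred 0.368 times against 0.286. The mitosis lists, which went the other way, stood at 0.377 per kb. The 2-fold lower genes held the letters in 26.7% of their UTRs, at 0.659 per kb.

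**Figure D3:**
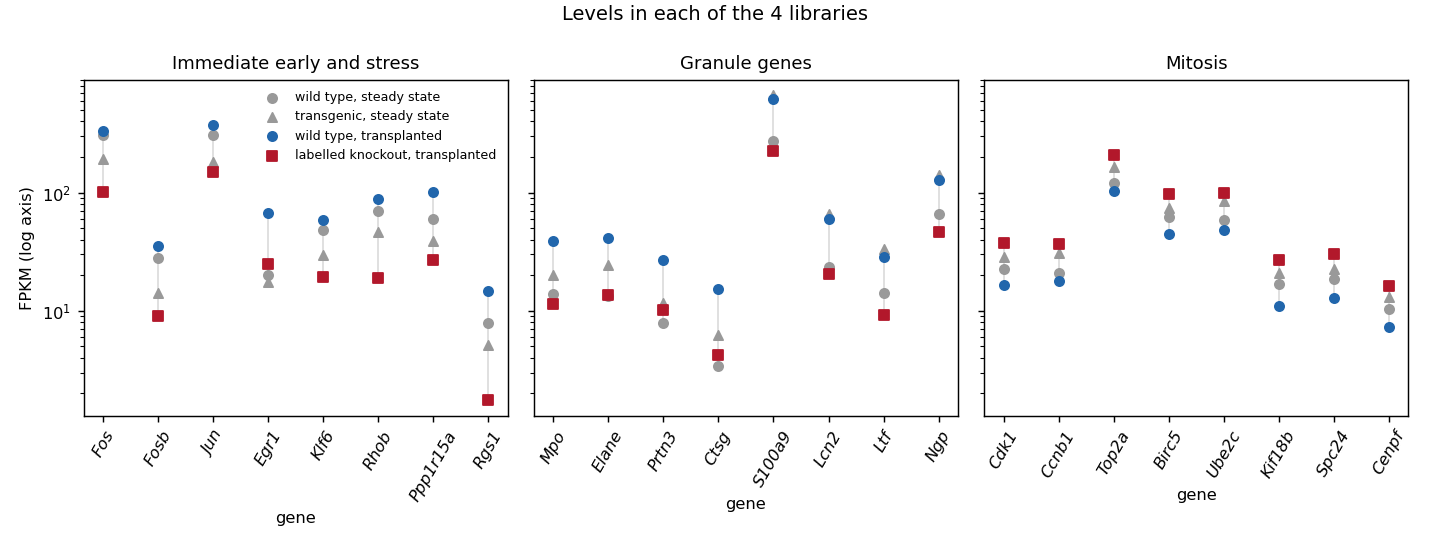
Levels in FPKM on a log axis for 24 genes in 3 panels, 1 symbol per library: grey circles and triangles are the steady-state wild-type and transgenic libraries, blue circles transplanted wild type and red squares the knockout-labelled library. For Fos, Fosb, Jun, Klf6, Rhob, Ppp1r15a and Rgs1 the red square is the lowest symbol; for Egr1, Mpo, Elane, Prtn3 and Ctsg the blue circle stands above the remaining 3; for all 8 mitosis genes the red square is highest and the blue circle lowest.

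AP-1 factors, the FOS and JUN family that pairs to bind DNA, were lower in all 10 measured cases, 5 of them by 2-fold, at a median of -1.02. Rescaling the libraries to the same sum, or by the median ratio or the upper quartile, left 9 of the 10 lower; the exception is Mafk, which stood at 24.4 and 24.3 FPKM. Fos was at 307, 192, 334 and 102 FPKM in steady-state wild type, transgenic, transplanted wild type and knockout-labelled. The knockout-labelled library was the lowest and both wild-type libraries were close to each other; within the pair Fos was 3.29-fold (3.11 to 3.48) lower. Fosb was at 27.8, 14, 35.1 and 9.09 FPKM in that order, 3.86-fold (3.39 to 4.43) lower. Jun was at 309, 182, 371 and 150.4 FPKM, 2.47-fold (2.37 to 2.56) lower, and Junb 2.16-fold (2.03 to 2.31) lower. Atf3, a stress-induced member, was listed at 0.463, 0.622, 1.53 and 0 FPKM, which is 21 fragments in transplanted wild type and none in the knockout-labelled library. In Fos, Fosb, Jun and Junb the transgenic library was the nearest to the low one.

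Kruppel-like factors divided within the family. Klf6 (3.05-fold, 2.79 to 3.34, lower), Klf4 (2.71-fold, 2.38 to 3.08) and Klf2 (2.32-fold, 2.21 to 2.43) were at least 2-fold lower. Klf10, Klf11 and Klf13 had ratios of 1.08 (0.898 to 1.31), 1.27 (1.05 to 1.55) and 1.12 (1.07 to 1.19). In all 7 of 11 members were lower, near the 55.9% of all genes. Klf2, which holds lymphocytes in quiescence, was at 473, 239, 436 and 188 FPKM in the order of libraries used above, and Klf4 at 48.1, 19.1, 37.8 and 14 FPKM. For Klf4 transplanted wild type lay between the steady-state libraries and the knockout-labelled library below all of them. Other genes for which that library was the lowest were Sgk1, a serum- and glucocorticoid-induced kinase, at 124, 70.4, 127 and 48 FPKM, Rhob, an inducible small GTPase, at 70.3, 46.5, 88 and 19 FPKM (4.62-fold, 4.11 to 5.21, lower), and Cd69, the early activation antigen, at 175, 88.8, 184 and 61.3 FPKM (3-fold, 2.76 to 3.26, lower). Rgs1, which damps G protein signalling from chemokine receptors, had the lowest difference among named genes at 5 FPKM or more in either transplanted library, at 7.9, 5.15, 14.6 and 1.74 FPKM, 8.37-fold (6.32 to 11.3) lower and resting on 412 and 55 fragments in the pair. Of 10 RGS genes 8 were lower, at a median of -0.55, with Rgs16 (2.48-fold, 2.05 to 3.02, lower) after it.

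A second set of immediate early genes stood apart through transplanted wild type. Egr1, the zinc finger factor induced by ERK signalling, was at 20.2, 17.4, 67.7 and 25 FPKM in steady-state wild type, transgenic, transplanted wild type and knockout-labelled. The knockout-labelled library lay near the steady-state pair, and transplanted wild type alone was high; the distance within the pair was 2.71-fold (2.46 to 2.98). Egr2 was at 1.24, 1.6, 4.58 and 1.63 FPKM and Ier3 at 3.09, 3.59, 7.45 and 3 FPKM in that order, with the same single high library. Ier5 and Ier2 were 1.85-fold (1.73 to 1.99) and 1.73-fold (1.55 to 1.93) lower in the knockout-labelled library, where they stood at 47 and 46.9 FPKM beside 53 and 52.9 in steady-state wild type. Of 14 EGR, NR4A and IER genes 13 were lower, 3 by 2-fold, at a median of -0.57. Dusp1, a phosphatase that ends MAP kinase signals, was at 31.5, 33.1, 56.1 and 21.4 FPKM and 2.62-fold (2.3 to 2.98) lower. The ERK-specific phosphatase gene Dusp6 was 1.24-fold (1.16 to 1.32) lower. Of the 12 genes of their list 8 were lower, beside 55.9% of all genes, at a median of -0.28 (-0.03 without the filter on low values).

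Myc and some genes of apoptosis control had the arrangement of Egr1. Myc, the growth-promoting transcription factor gene, was at 10.8, 12.9, 38 and 17.2 FPKM in the order used above, 2.21-fold (1.93 to 2.53) lower within the pair. Its partners and antagonists had other positions: Max was at 63.8 and 59.3 FPKM in the pair, and Mxd3, an S-phase MXD member, was at 17.1, 27.1, 17.4 and 28.8 FPKM and higher in the knockout-labelled library. Pmaip1, the gene of the death-promoting BH3-only protein Noxa, was at 4.96, 4.16, 16.3 and 4.85 FPKM and the anti-apoptotic Bcl2 at 4.5, 4.81, 8.64 and 4.64 FPKM, each with transplanted wild type as the single high library. The BCL2 family as a whole was level, with 9 of 16 higher and a median of 0.02, and Bmf, another pro-apoptotic member, had a ratio of 1.41 (1.34 to 1.5). Of 24 p53 pathway genes 15 were lower, at a median of -0.09, near the 55.9% of all genes that were lower.

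Few stress genes differed by 2-fold. In the integrated stress response list 1 of 22 was 2-fold lower, and in the heat shock list 3 of 24. Ppp1r15a, which encodes the phosphatase subunit GADD34 that ends the integrated stress response, was at 59.6, 39.3, 101 and 26.9 FPKM in the order used above, 3.75-fold (3.39 to 4.15) lower. Its list was lower for 17 of 22 genes, their median being -0.21, with Gadd45g 1.81-fold (1.55 to 2.1) lower and the serine synthesis gene Psat1 at a ratio of 1.39 (1.25 to 1.55) on the other side. The inducible HSP70 genes Hspa1b (8.39, 19.2, 45.2 and 9.73 FPKM) and Hspa1a (2.26, 5.58, 14.4 and 2.75 FPKM) were highest in transplanted wild type, with the transgenic library next. They are near-identical copies whose reads the counting may have divided, so their separate values are uncertain. Of 24 heat shock genes 17 were lower, at a median of -0.14, and of 22 unfolded protein response genes 18, at -0.10. Beside these lists, 55.9% of all genes were lower.

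Genes of NF-kB signalling were lower by less. Of 22 subunits, inhibitors and targets 18 were lower, beside 55.9% of all genes, at a median of -0.24. The 2 that were lower by 2-fold were Cd69 and Il1b. Icam1, an adhesion target, was 1.49-fold (1.28 to 1.75) lower, and Tnf rested on 5 and 14 fragments. Zfp36, the tristetraprolin gene whose product destroys AU-rich messages, was at 807, 491, 701 and 394 FPKM in the same order, 1.78-fold (1.73 to 1.83) lower, and Zfp36l1 1.52-fold (1.45 to 1.59) lower. The third family member Zfp36l2 went the other way, at 228, 243, 305 and 373 FPKM. Of 27 Toll-like receptor and adaptor genes 23 were lower, beside 55.9% of all genes, at a median of -0.25. They were led by Tlr1 (12, 14.1, 22.6 and 11.9 FPKM, 1.91-fold, 1.65 to 2.22, lower), a receptor of bacterial lipopeptides, and Tlr4 (2.45-fold, 1.67 to 3.7).

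In the list of interleukin-7 receptor, JAK and STAT genes, Il7r was among the 6 of 26 that were higher. Il7r, the receptor chain, was at 240.3, 276, 176 and 256 FPKM in steady-state wild type, transgenic, transplanted wild type and knockout-labelled, a ratio of 1.45 (1.4 to 1.51) within the pair with transplanted wild type as the low library. The list as a whole was mostly lower, 20 of 26 genes at a median of -0.18, beside 55.9% of all genes. Lower genes included the kinase gene Jak3 (1.5-fold, 1.33 to 1.7) and the survival gene Mcl1 (1.3-fold, 1.25 to 1.35). Feedback genes gave the same direction in part: Socs3 was 1.88-fold (1.14 to 3.05) lower, Pim2 1.41-fold (1.28 to 1.56), Pim1 1.3-fold (1.23 to 1.37), and Cish stood at 1.25 and 1.24 FPKM.

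Rag1, the recombinase subunit, was at 638, 429, 453 and 286 FPKM in the order used above, lowest in the knockout-labelled library, while Rag2 was at 43.1, 39.6, 28.4 and 35.4 FPKM and had a ratio of 1.24 (1.13 to 1.37). The surrogate light chain genes Igll1 and Vpreb1 had ratios of 1.37 (1.13 to 1.65) and 1.28 (1.02 to 1.62), and their whole list of 24 pre-B receptor genes a median of -0.08. The B lineage transcription factors were level, with 18 of 37 higher and a median of -0.02 that turned to between 0.00 and 0.01 under rescaling. Within them Id2, an inhibitor of E proteins, was at 9.49, 13.7, 23.1 and 10.5 FPKM and 2.21-fold (1.72 to 2.84) lower. Transplanted wild type was its highest library and the transgenic library was next.

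Surface genes that appear as B cells mature were lower for 27 of 29 genes, beside 55.9% of all genes, their median being -0.56. Transplanted wild type lay 0.49 above the steady-state mean, and the knockout-labelled library at -0.04 from it; the former was the highest of the 4 in 23. Ms4a1, which encodes CD20, was at 156, 171, 412 and 263 FPKM in steady-state wild type, transgenic, transplanted wild type and knockout-labelled. Cd40, the receptor for T cell help, was at 32.3, 34.5, 58.3 and 32.4 FPKM, Faim3, the Fc receptor for IgM, at 195, 224, 401 and 238 FPKM, and Ltb, the lymphotoxin beta gene, at 82.4, 119, 195 and 109 FPKM. For Cd40 the knockout-labelled library matched steady-state wild type, and for Ms4a1 it lay between the steady-state libraries and transplanted wild type.

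MHC class II genes were lower for 12 of 14 genes, their median being -0.59, with a different arrangement of libraries. H2-Aa was at 589.9, 834, 816 and 514 FPKM and H2-Eb1 at 239, 343, 359.6 and 206 FPKM in the same order, so that the transgenic library was near transplanted wild type and both were above the remaining pair. Cd74, the invariant chain, was at 1411, 2107, 2586 and 1569 FPKM. Homing and retention genes were lower for 18 of 23 genes, beside 55.9% of all genes, their median being -0.40. They included S1pr1, the receptor that leads lymphocytes out of tissue, at 72.8, 52.8, 77.5 and 43.7 FPKM, Ccr7 (1.6-fold, 1.48 to 1.74, lower), the integrin chain gene Itgal (1.83-fold, 1.64 to 2.04) and Cxcr4, the receptor that retains B cell precursors in marrow, at 1086, 783, 826 and 617 FPKM.

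**Figure D4:**
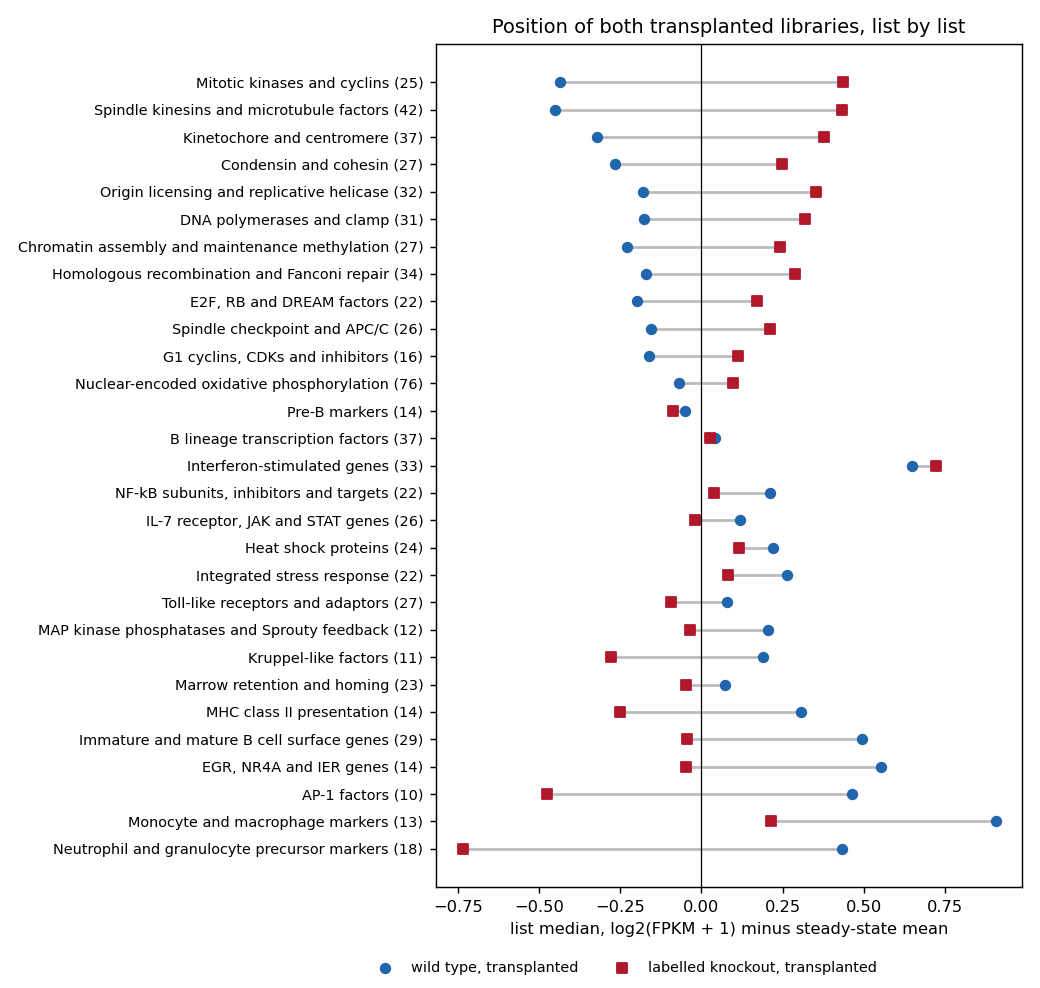
For 29 gene lists (number of measured genes in brackets) the x axis gives the median of log2(FPKM + 1) minus the mean of both steady-state libraries, for transplanted wild type (blue circles) and the knockout-labelled library (red squares). The mitotic kinase list has them at -0.44 and 0.44, on either side of 0, the interferon list has both to the right at 0.65 and 0.72, and the neutrophil list has them at 0.43 and -0.74 in the opposite order.

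Interferon-stimulated genes did not separate the pair. Of 33 genes 19 were higher and 14 lower in the knockout-labelled library, none by 2-fold, at a median of 0.05. Their summed level was 827, 2019.8, 1651 and 1928 FPKM in steady-state wild type, transgenic, transplanted wild type and knockout-labelled, so that steady-state wild type alone was low. Isg15 was at 5.23, 10.8, 13.2 and 19.1 FPKM and Gbp2 at 4.25, 6.67, 13.1 and 8.45 FPKM in that order, with transplanted wild type and the knockout-labelled library in opposite places for the pair of genes. Housekeeping programs differed little. Nuclear-encoded oxidative phosphorylation genes were higher in 66 of 76 cases by a median of 0.15, proteasome subunits in 26 of 31 by 0.09, and cytosolic ribosomal proteins were lower for 73 of 83 genes, with a median of -0.11. The ribosomal median was -0.08 to -0.09 under the 3 rescalings.

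Markers of neutrophils and monocytes, which a pre-B preparation may hold as other cells, were lower beside the signalling genes. Of 18 measured neutrophil and granulocyte precursor markers 17 were lower in the knockout-labelled library, 14 by 2-fold, at a median of -1.30. Of 13 monocyte and macrophage markers 12 were lower, 3 by 2-fold, at -0.92. Among all genes 55.9% were lower, and 0.981% by 2-fold. The summed level of the neutrophil list was 793, 1891, 1756 and 677 FPKM in steady-state wild type, transgenic, transplanted wild type and knockout-labelled, and that of the monocyte list 66.6, 107, 158 and 71.3. The defining marker S100a9 was not near 0 in any library, at 273, 669.7, 625 and 227 FPKM, and neither was Lyz2, at 30.7, 52, 76.2 and 27.1 FPKM. Fcgr1 was at 0 in both steady-state libraries and Cd14 in the knockout-labelled library. The part of these cells in the differences of the immediate early, Toll-like receptor and MHC class II genes was not tested. Without the genes of both marker lists and the clustered histones, a restriction chosen after the data were seen, 54 genes were at least 2-fold higher and 82 lower. These are the earlier counts less the listed genes, so they do not check for other cells. Genes outside the lists that myeloid cells also express were not removed.

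The granule genes showed 2 arrangements of libraries. Primary granule genes, made in promyelocytes, were highest in transplanted wild type, with the transgenic library next but well below it. Mpo was at 13.8, 19.9, 38.8 and 11.4 FPKM and Elane at 13.4, 24.5, 41.6 and 13.6 FPKM. Ctsg was at 3.44, 6.24, 15.4 and 4.2 FPKM and Prtn3 at 7.88, 11.7, 26.7 and 10.1 FPKM. Within the pair Mpo and Elane were 3.41-fold (2.96 to 3.95) and 3.07-fold (2.41 to 3.95) lower in the knockout-labelled library. Ctsg and Prtn3 were 3.67-fold (2.4 to 5.77) and 2.64-fold (1.98 to 3.51) lower there. Genes of secondary granules and of later neutrophils were about as high in the transgenic library as in transplanted wild type, with Lcn2 at 23.7, 65.7, 59.8 and 20.5 FPKM, Ltf at 14.3, 33.2, 28.4 and 9.17 FPKM and Ngp at 66.1, 139.7, 129 and 46.1 FPKM. Hp (haptoglobin, 4.13-fold, 2.77 to 6.31, lower), Fcgr3 (4.2-fold, 2.18 to 8.72) and Ifitm6 (3.02-fold, 1.56 to 5.92), which myeloid cells also express, were among the 25 lowest named genes. These 4-library values were grouped after they had been seen.

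Plasma cell markers, many of which pre-B cells also express, summed to 1492, 1201, 978 and 942 FPKM in the same order, with 8 of 10 lower and a median of -0.21. T and NK markers reached the threshold of 1 FPKM in 4 of 17 cases, all lower, with Nkg7 at 2.25, 2.5, 6.39 and 1.9 FPKM. Summed levels in the order used above were 24.3, 21.8, 33 and 24.8 FPKM for T and NK markers, 249, 151, 128 and 147 for erythroid markers, 24.7, 21.3, 21.4 and 14.7 for megakaryocyte markers and 99.3, 101, 93.3 and 89.3 for stromal and endothelial markers, of which Pecam1, at 88.9 and 85.4 FPKM in the pair, is also expressed in the B lineage. Dendritic cell markers summed to 61.7, 83.9, 97.6 and 100.004 FPKM, carried by Bst2 and Tcf4, and eosinophil, basophil and mast cell markers to 25.9, 83.1, 31 and 25.4. Igj, the joining chain of plasma cells, was far lower in both transplanted libraries, at 306, 204, 16.6 and 7.23 FPKM. Xist, transcribed from the inactive X chromosome of female cells, was read together with Y-linked genes in every library, at 78.8, 66, 34.4 and 19.4 FPKM, and Ddx3y at 26.1, 22.6, 36.1 and 35 FPKM. The labels give neither the sex nor the number of animals.

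The highest named genes by difference were Rpl34-ps1, a ribosomal pseudogene (112, 4.5, 67.5 and 244 FPKM), Cdk5rap1 (4.41, 18.8, 5.05 and 19.5 FPKM), the clustered histone gene Hist1h2bm, which rests on 4 and 20 fragments, Atp6v0c, a proton pump subunit (65.9, 66.6, 23.3 and 74.7 FPKM), the short ribosomal protein gene Rps27 and the RNA gene Rpph1 (3 and 10 fragments). Cdk5rap1 and Rps27 were high in the transgenic library as well, and Atp6v0c was low only in transplanted wild type. Pseudogenes, near-identical family members and overlapping genes share reads that the authors' counting may have divided, and transcripts without a poly(A) tail, such as most clustered histones and Rpph1, are poorly captured by a poly(A) kit. Gsn, the actin-severing protein gelsolin, was also among the 25 highest named genes, at 25.1, 35.8, 18.5 and 42.5 FPKM, as was Nrgn, a calmodulin-binding protein gene, at 7.17, 5.58, 5.94 and 13.7 FPKM. On the low side Mid1, a ubiquitin ligase gene at the boundary of the pseudoautosomal region, was at 11.4, 1.87, 13.7 and 4.69 FPKM, low in the transgenic library as well.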

How the data were processed

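RNA-seq of pre-B cells gave 4 libraries, 1 per group, grouped by the labels' source names. The labels' protocols name a miRNeasy kit for total RNA and a TruSeq stranded mRNA preparation. According to the submitters' processing notes, reads were placed on mm10; Cufflinks 2.2.1, TopHat2 2.0.13, SAMtools 0.1.19 and Bowtie2 2.2.3 are the tools named. What each did, which annotation was used and how values were filtered are not stated there. The deposited values are treated as FPKM, since Cufflinks is named and low values of genes with a single transcript step by 1 fragment; per the file headers no unit is given. Of 2406 to 2567 such low values per library, 59.7% to 61.6% lay within 0.05 of a whole fragment, where 10% would by chance, with an effective length of the transcript minus 210 nt.

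Depths from these steps, with the length of 1 transcript per gene, gave the fragments behind each ratio. Differences are log2(FPKM + 1), with a pseudocount of 1, in Python 3.11.15 (numpy 2.4.6, pandas 2.3.3, scipy 1.17.1); no test was run, as each group has 1 library. The counting was tested on simulated data. GENCODE M21 on GRCm38, the assembly mm10 names, supplied lengths and coordinates. A direct match was found for 20911 symbols, a synonym for 1915 and neither for 458. Promoters came from RefSeq, 1 per gene.

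The genes compared, the 56 gene lists and the measures were chosen with earlier results of these data known. Genes were named by rule: Stap2, the 25 highest and 25 lowest at 5 FPKM or more (without receptor segments, small RNA genes and unnamed models such as Gm, Rik and LOC entries), and the 6 members of each list farthest apart, or every member of a list of up to 12. Ms4a1, Prtn3, Cdkn1b, Xist, Ddx3y and genes at the 2-fold edge were named after their values were seen. Alternatives were other pseudocounts, filters, scalings and a 1.5-fold threshold.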

Additional observations from a re-analysis of the deposited data

How the results depend on the processing

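The count of genes at least 2-fold higher in the knockout-labelled library, 63, became 141 with a pseudocount of 0.1, 10 with a pseudocount of 5 and 388 at 1.5-fold. The count of genes at least 2-fold lower, 104, became 239, 33 and 436 under the same changes, and 61 among genes at 5 FPKM or more. The remaining alternatives gave 44 to 79 higher and 82 to 127 lower, the 82 being the main count less marker and histone genes. Rescaling the libraries to the same sum, by the median ratio or by the upper quartile gave 79, 70 and 70 higher and 102 lower each time, and moved the share of all genes that were higher from 44.1% to 49.5%, 48.1% and 47.5%. The counts of genes in which either library lay above or below all others stayed within 1.5 times under every alternative run. A pseudocount cannot alter this order, so those runs gave the same counts. The balance of above and below did depend on scaling. For the knockout-labelled library, 2395 above and 3212 below became 2772 and 2777 by the median ratio. For transplanted wild type, 2877 above and 2609 below became 2522 and 3021 at the same sum. The sign of a list's median changed for the eosinophil, basophil and mast cell list (5 alternatives) and the B lineage factor list (3 rescalings), and for the early B progenitor and erythroid lists without the filter on low values; the causes were not tested, and 48 of 52 lists kept their sign under all 8 alternatives tried on lists. The median of 19 lists kept its sign but moved by over 1.5 times in size under at least 1 of these alternatives. A pseudocount of 5 did this for 11 lists and rescaling for 4 to 9. Without the filter on low values the MAP kinase phosphatase list went from -0.28 to -0.03, the RGS list from -0.55 to -0.32 and the integrated stress response list from -0.21 to -0.13. At 5 FPKM or more the glycolysis list went from -0.13 to -0.04 and the BCL2 family from 0.02 to 0.03. The causes were not tested. No paired analysis was possible because each group has 1 library, and for the same reason no library could be left out.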

Other observations

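Further gene groups differed little within the transplanted pair or divided inside the list. Recombination and end-joining genes were higher for 10 of 14 members, with a median of 0.12. Hmgb1 and Hmgb2, DNA-bending proteins that assist the recombinase and are also abundant in dividing cells, were at 420.1, 478, 340.2 and 526 FPKM and at 250.4, 299, 196 and 371 FPKM in steady-state wild type, transgenic, transplanted wild type and knockout-labelled, while Rag1 was lowest in the last. Early B progenitor surface genes were split evenly, 7 higher and 7 lower, with Cd9 at 6.52, 11.5, 12.3 and 7.84 FPKM and Ly6a, the Sca-1 gene, at 32.3, 118, 69.7 and 48.6 FPKM. Of 25 genes associated with quiescence 17 were lower, beside 55.9% of all genes, with a median of -0.16. Among them was the glucocorticoid-induced Tsc22d3 at 543, 385, 512 and 365 FPKM.

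MHC class I presentation genes were lower for 16 of 21 members, with a median of -0.10, a smaller difference than the -0.59 of class II. Glycolysis genes were lower for 15 of 21 (-0.13), cholesterol and fatty acid synthesis genes for 21 of 29 (-0.11) and ribosome biogenesis genes for 24 of 38 (-0.09), beside 55.9% of all genes. Cox7a1, a muscle-type subunit of cytochrome c oxidase, was the only oxidative phosphorylation gene at least 2-fold lower, on 7 and 0 fragments.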
